A study of Homo sapiens with 6 samples.

Results

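RUNX1, RUNX2, RUNX3 and CBFB encode the DNA-binding subunits and the shared partner subunit of core binding factor, and they were followed here in a lung epithelial line after knockdown of the bromodomain protein BRD8. The 4 genes were taken by symbol from the deposited table of 26364 genes, all 4 were found, and 3 of them reached the mean of 10 normalized counts needed to enter the test over 15354 genes. They were chosen with results of this comparison in view, so their own values are given as a description without a p-value. The samples were 6 RNA-seq libraries of Calu3, an established line from a human lung adenocarcinoma. In 3 libraries the cells had received a negative control siRNA and in the other 3 an siRNA against BRD8, each at 20 nmol with a lipid transfection reagent, and no further treatment or allele is labelled in either group. The knockdown used 1 siRNA product and 1 cell line, the labels give no time after transfection, and nothing in them says whether the 3 libraries of a group came from separate cultures, so the p-values below measure a spread between libraries that may be technical. The titles and the cell line field name Calu3, whereas the extraction protocol speaks of confluent HBE cells.

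RUNX proteins bind DNA through the Runt domain, and CBFB, which does not itself touch DNA, binds that domain, raises its affinity for DNA and protects RUNX1 from degradation. RUNX1 is required for the first blood stem cells, RUNX2 for bone formation, and RUNX3 for T cell, sensory neuron and epithelial programmes. In epithelia RUNX factors act beside AP-1, ETS, SMAD and YAP/TEAD proteins, and RUNX3 has been described both as a growth-restraining gene that is often silenced in carcinomas and as a gene that favours invasion. Each RUNX gene can be read from a distal and a proximal promoter, and the core sequence its protein recognises reads TGTGGT or TGCGGT.

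Library depth ran from 33640814 to 37896467 reads assigned to genes, and the 10 most abundant genes took 5.02% to 5.89% of them. BRD8, the targeted gene, stood at 2751, 2928 and 3067 normalized counts in the control libraries and at 1312, 1084 and 1156 after BRD8 siRNA. The groups did not overlap, and BRD8 fell by 1.30 on the log2 scale (SE 0.0904, limma adjusted p = 0.000113). Some BRD8 exon bases are shared with KIF20A, which runs the other way, and reads of the pair cannot be told apart in these unstranded libraries. Over all genes tested 1549 rose (10.1%) and 1371 fell (8.93%), with a median log2 fold change of -0.014. Leaving out any single library moved these counts, from 832 higher and 528 lower without control library 3 to 2445 higher and 2784 lower without control library 2. Control library 2 stood apart from the other control libraries: it differed from control library 1 by a chi-square of 48.7 per degree of freedom, against 6.29 between control libraries 1 and 3. Values without it are therefore given where it moves a count of the gene lists below by more than 1.5-fold. Of 10 epithelial markers 4 rose and none fell in limma (6 had an unadjusted p under 0.05), and their summed level was 373784 to 469755 in control and 493871 to 555472 after BRD8 siRNA, a difference whose part in the results below was not tested. The line carried epithelial keratins at high level, while 9 of 10 lymphoid, 8 of 10 stromal and 3 of 8 myeloid markers had means under 10. The summed lymphoid markers were 35.6 to 46.8 in control and 30.2 to 46.4 after BRD8 siRNA, most of it CD8A (33.9 ± 5.11 and 33.8 ± 9.47, SD, n = 3 each), and CD2 was at 0 in every library. The myeloid sum, mostly lysozyme, was 18010 to 19869 and 18742 to 19256 (1 gene, CD68, rose), the stromal sum was 224.6 to 233.7 and 229.5 to 245.5 (1 gene, LUM, rose), and TYROBP and COL1A2 were at 0.

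RUNX3 was the member with the largest difference. It was counted at 238, 265 and 209 normalized counts in the 3 control libraries and at 58.2, 54.1 and 60.9 in the 3 BRD8 siRNA libraries, resting on 206 to 251 and on 56 to 63 reads. Every BRD8 siRNA library therefore lay far below every control library, with a mean of 57.7 ± 3.45 against 237 ± 27.6 (SD, n = 3 each), a level 4.11-fold lower. On the log2(normalized count + 1) scale the difference was -2.02 (SE 0.135), the second most negative of the 15354 genes tested after ADAM19, which sets RUNX3 among the most strongly lowered genes of the series. With each library left out in turn the value stayed between -2.10 and -1.93, and the authors' deposited table gives -2.04 with a standard error of 0.195. In bulk RNA a lower level in each cell and fewer cells with the RNA cannot be told apart. The markers of T and natural killer cells, a cell type in which RUNX3 is abundant, were at the low levels given above in both groups.

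The table holds 1 count for each gene, so RNA from the distal and the proximal start of RUNX3 is summed in these values. The sequences from 250 bases before to 50 bases after each annotated start are shown because RUNX3 carried the largest difference and its upstream start holds the recognition sequence of the RUNX proteins themselves. They are from the RefSeq promoter table (GRCh38.p14), whose entries matched 3 of the 4 members, RUNX1, RUNX2 and RUNX3. Capitals mark matches to TGTGGT or TGCGGT on either strand, so a match on the opposite strand reads ACCACA or ACCGCA, and no 2 matches in these windows overlap. The RUNX3 upstream start lies on the minus strand at chr1:24964961-24965260, the RUNX3 downstream start on the minus strand at chr1:24930227-24930526, and the upstream start of RUNX2, given for comparison, on the plus strand at chr6:45328080-45328379.
RUNX3 upstream start: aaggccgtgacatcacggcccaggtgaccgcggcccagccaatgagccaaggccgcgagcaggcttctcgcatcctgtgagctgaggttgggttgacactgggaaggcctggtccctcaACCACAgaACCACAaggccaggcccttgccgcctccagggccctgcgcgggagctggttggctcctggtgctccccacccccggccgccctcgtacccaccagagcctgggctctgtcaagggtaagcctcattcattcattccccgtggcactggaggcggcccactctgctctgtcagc
RUNX3 downstream start: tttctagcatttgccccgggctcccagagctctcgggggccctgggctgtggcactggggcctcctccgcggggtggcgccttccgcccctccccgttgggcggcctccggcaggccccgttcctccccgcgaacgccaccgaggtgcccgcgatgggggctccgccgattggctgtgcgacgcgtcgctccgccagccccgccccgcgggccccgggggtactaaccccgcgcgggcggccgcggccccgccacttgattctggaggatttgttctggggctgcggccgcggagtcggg
RUNX2 upstream start: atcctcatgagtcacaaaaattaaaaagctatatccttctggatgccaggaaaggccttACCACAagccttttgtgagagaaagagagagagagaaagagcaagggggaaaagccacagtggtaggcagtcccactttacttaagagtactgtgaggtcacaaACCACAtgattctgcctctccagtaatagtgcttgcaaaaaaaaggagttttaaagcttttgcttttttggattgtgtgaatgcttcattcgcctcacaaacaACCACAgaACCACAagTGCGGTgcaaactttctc

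The upstream window of RUNX3 held 2 matches, both TGTGGT on the strand opposite to the gene, at -131 to -126 and at -123 to -118 counted from the start. The downstream window of RUNX3 held 0, as did the RUNX1 window (chr21:34888650-34888949, minus strand) and the downstream window of RUNX2 (chr6:45422025-45422324, plus strand). No other RUNX1 window was available, so another start of that gene was not searched. Bases just after the start were looked for in the GENCODE release 29 transcripts of each gene. They were in 0 transcripts for the RUNX1 window and the RUNX3 downstream window, so these starts were not matched to that annotation. For the upstream and downstream windows of RUNX2 they were in 5 and 2, and for the RUNX3 upstream window in 1. The upstream window of RUNX2 held 5, of which 4 were TGTGGT on the opposite strand and 1 was TGCGGT on the strand of the gene. These windows also differed in composition: the GC content was 66.3% and 76.0% at the upstream and downstream starts of RUNX3, 42.7% and 76.0% at those of RUNX2, and 72.0% at the RUNX1 start.

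The longest run of bases shared by the upstream windows of RUNX3 and RUNX2 was a stretch of 18 bases that holds the paired matches.
shared stretch: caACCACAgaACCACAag
It sits at -133 to -116 in RUNX3 and at 15 to 32 after the start in RUNX2. Of the 35116 promoter windows in the table only these 2 contain it, and RUNX1 entered that search only with the window given above. The stretch was picked from these 2 windows as their longest shared run, so its presence in them was fixed beforehand. Nothing is read from its absence elsewhere, since how often a run of this length recurs was not tested. Among all windows 19.6% held at least 1 of the 2 motifs and 2.32% held 2 or more. For comparison the share with at least 1 was 17.9% of 1595 windows of genes that rose, 18.3% of 1570 windows of genes that fell and 19% of 12775 windows of genes not called. A match is a run of letters and not a bound site, and the series holds no binding data for any RUNX protein among the files analysed here.

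**Figure D1:**
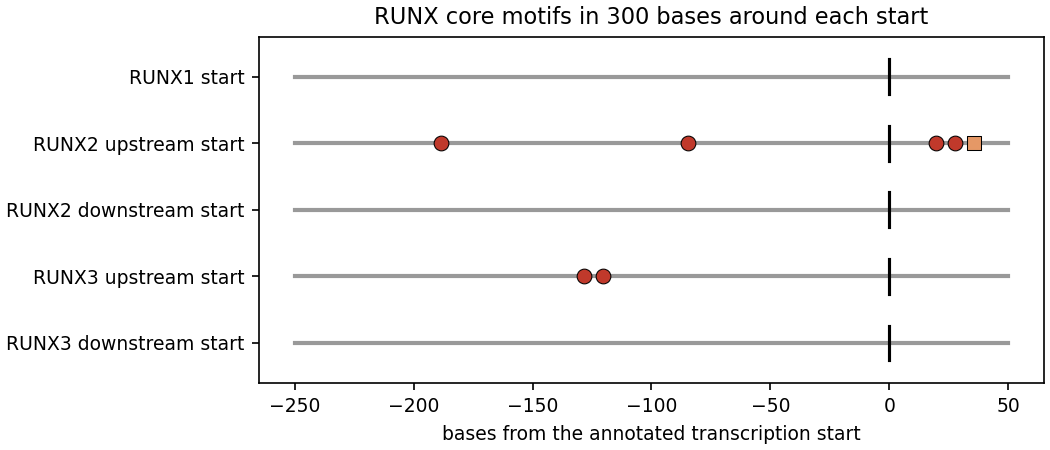
Positions of RUNX motif matches in the 5 promoter windows of RUNX1, RUNX2 and RUNX3, drawn as distance in bases from the annotated start (x axis), with circles for TGTGGT, squares for TGCGGT and 1 line for each window. The 2 matches of RUNX3 stand together before its upstream start, RUNX2 has 5 around its upstream start, and the other 3 windows have 0.

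RUNX1, the member with the highest level, showed a smaller difference. Its normalized counts were 6007, 4601 and 5587 in control and 4079, 3980 and 4451 after BRD8 siRNA. The groups did not overlap, but the lowest control library, library 2, was close to the highest BRD8 siRNA library. The means were 5399 ± 722 and 4170 ± 248 (SD, n = 3 each), a ratio of 0.772, and the log2 difference was -0.37 (SE 0.104). The authors' deposited table gives -0.37 with a standard error of 0.117. Leaving out control library 2 moved this difference to -0.48, and leaving out control library 1 moved it to -0.28. RUNX1 ranked 1714 in order of fall among the genes tested, at percentile 11.2 of all log2 differences.

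CBFB, the partner subunit, was lower by about the same proportion as RUNX1 and with less spread. It was counted at 1865, 1683 and 1809 normalized counts in control and at 1365, 1289 and 1348 after BRD8 siRNA. The groups were well apart, with means of 1786 ± 93.2 and 1334 ± 40.0 (SD, n = 3 each). The level was 1.34-fold lower, the log2 difference was -0.42 (SE 0.0747, leave-one-out range -0.46 to -0.39), and the authors' deposited table gives -0.42 with a standard error of 0.0907. CBFB ranked 1309 in order of fall, at percentile 8.52.

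RUNX2, the skeletal member, was near the limit of detection. It had 7.58, 5.40 and 6.10 normalized counts in control and 5.20, 7.59 and 5.80 after BRD8 siRNA, which are 8, 5 and 6 reads against 5, 8 and 6 reads. The groups overlapped fully, and 3 reads correspond to 2.84 to 3.24 normalized counts in these libraries. The means were 6.36 ± 1.12 and 6.19 ± 1.24 (SD, n = 3 each). With 19 reads in each group the ratio per depth was 0.969 with an exact 95% interval of 0.485 to 1.93, which covers counting error only. A change smaller than those bounds was not detectable at this depth.

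**Figure D2:**
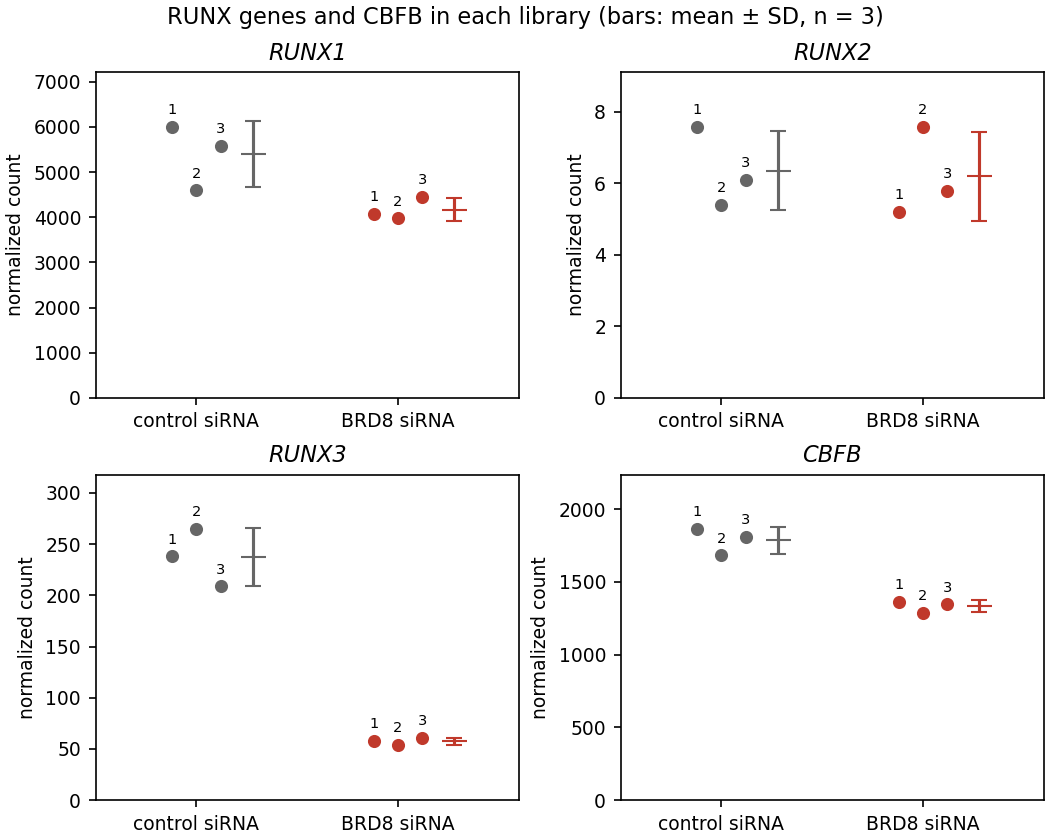
Normalized counts (y axis, linear and starting at 0, 1 panel for each gene) of RUNX1, RUNX2, RUNX3 and CBFB in the 3 control and 3 BRD8 siRNA libraries, with 1 numbered point for each library and the mean ± SD (n = 3) beside each group. RUNX3 is at 209 to 265 in control and 54.1 to 60.9 after BRD8 siRNA, RUNX1 and CBFB are lower without overlap, and the RUNX2 points overlap.

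Lower values without overlap between the groups were thus seen for 3 of the 4 genes, or all 3 of those tested, beside 17.9% of all genes tested that were lower without overlap and 36.8% whose groups did not overlap in either direction. Because the genes were chosen from this comparison, nothing is read from that count. The members differed among themselves, from -2.02 for RUNX3 to -0.04 for RUNX2, while the middle 80% of all genes lay between -0.387 and 0.446. None of the 4 genes shares exon bases with another gene in GENCODE release 29. The annotation behind the deposited counts is not given, however. RefSeq places RUNX1-AS1, RUNX1-IT1, RUNX3-AS1 and SUPT3H, among others, within or across the RUNX genes. Whether reads of such genes enter these counts was not tested.

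**Figure D3:**
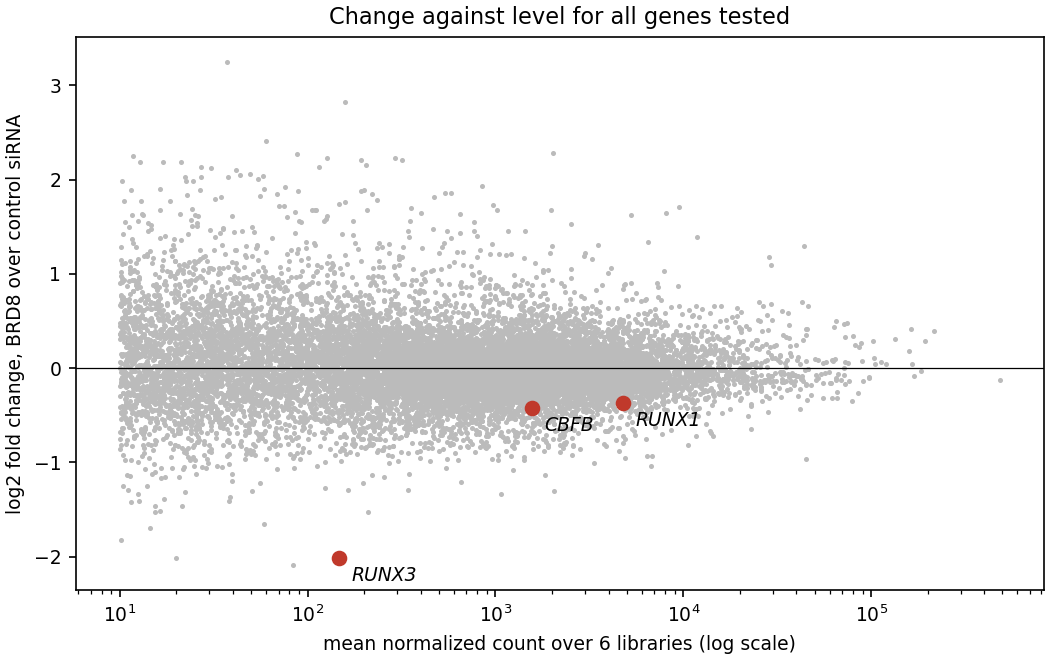
Log2 fold change (BRD8 over control siRNA, y axis) against the mean normalized count over the 6 libraries (x axis, log scale) for all genes tested in grey, with the members in red. RUNX3 lies at -2.02 at the lower edge of the cloud, and RUNX1 (-0.37) and CBFB (-0.42) lie inside its lower side.

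Levels of different genes were compared only after division by exon length, as normalized counts per kilobase of merged exon (8234 bases for RUNX1, 7096 for RUNX2, 4365 for RUNX3 and 3167 for CBFB). On this scale RUNX1 was at 656 ± 87.8 in control and 506 ± 30.6 after BRD8 siRNA (SD, n = 3 each). CBFB was at 564 ± 29.7 and 421 ± 12.7, RUNX3 at 54.4 ± 6.30 and 13.2 ± 0.802, and RUNX2 at 0.897 ± 0.158 and 0.873 ± 0.175. The order RUNX3 over RUNX2 held in every library by a wide margin, and both were below RUNX1 and CBFB. In control the RUNX1 range (559 to 730) and the CBFB range (531 to 589) overlapped, and after BRD8 siRNA RUNX1 (483 to 541) lay above CBFB (407 to 431).

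The RUNX RNA of these cells was thus nearly all RUNX1. RUNX3 made up 6.94%, 9.77% and 6.59% of the summed per-kilobase RUNX level in control and 2.62%, 2.49% and 2.51% after BRD8 siRNA. The share of RUNX1 was 92.1% ± 1.74 in control and 97.3% ± 0.0577 after BRD8 siRNA (SD, n = 3 each), without overlap. The ratio of RUNX1 to RUNX3 per kilobase was 13.4, 9.22 and 14.1 in control and 37.1, 39.0 and 38.7 after BRD8 siRNA. The summed RUNX level was 711 ± 83.7 in control and 521 ± 30.4 after BRD8 siRNA, and CBFB was lower beside it. The ratio of summed RUNX to CBFB overlapped between the groups, at 1.33, 1.17 and 1.27 in control and 1.18, 1.22 and 1.31 after BRD8 siRNA. These shares are fixed by the same values as above and are no separate evidence.

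**Figure D4:**
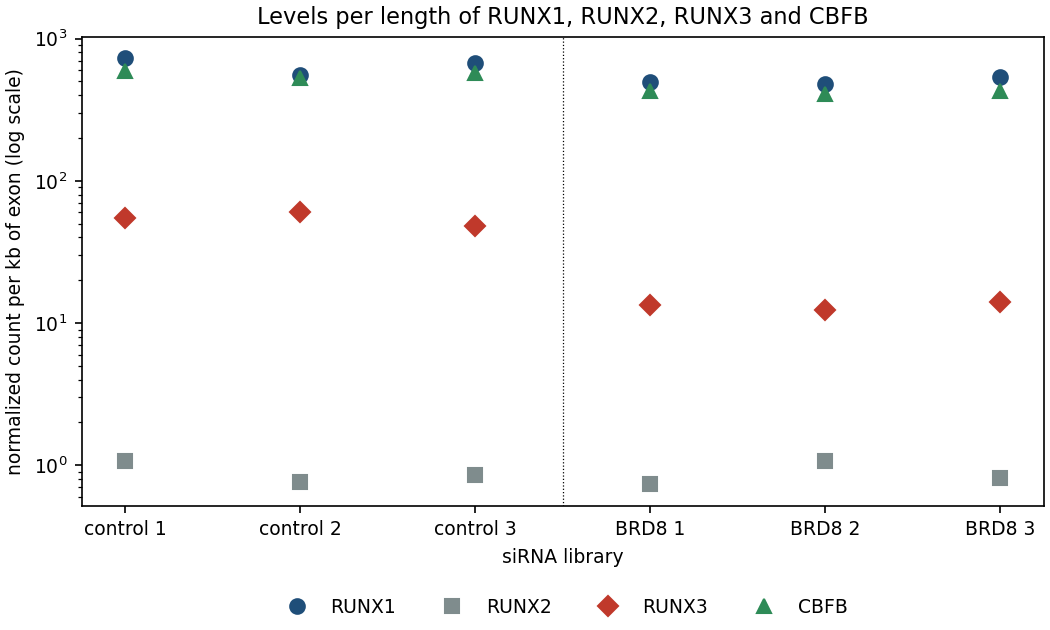
Normalized counts per kilobase of exon (y axis, log scale) of the 4 genes in each siRNA library (x axis), with 1 symbol for each gene and a dotted line between the groups. RUNX1 and CBFB are of similar size, RUNX3 lies between 48.0 and 60.6 in control and between 12.4 and 14.0 after BRD8 siRNA, and RUNX2 is near 1.

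The genes whose pattern over the 6 libraries was closest to each member were found by the Euclidean distance of centred log2 values among 13062 genes with a mean of at least 50. A gene chosen this way has the member's difference between the groups by construction, so the values of these genes are a description and no p-value is given for them. For RUNX3 these included ADAM19, a membrane metalloprotease, and DDC, which makes dopamine and serotonin from their amino acid precursors, at distances of 0.505 and 0.822. ADAM19 went from 136 ± 12.4 to 31.3 ± 5.31 and DDC from 314 ± 49.7 to 108 ± 10.1 normalized counts (SD, n = 3 each). The log2 differences were -2.09 and -1.52. The exons of ADAM19 and DDC overlap CYFIP2 and DDC-AS1 on the opposite strand.

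CBFB was closest to SLC1A1, a glutamate transporter, SENP2, a SUMO protease, and BTRC, the substrate receptor of a ubiquitin ligase, at distances of 0.0305, 0.0321 and 0.0610. SLC1A1 went from 5428 ± 310 to 4063 ± 153, SENP2 from 5508 ± 261 to 4174 ± 103, and BTRC from 651 ± 35.9 to 494 ± 25.0 normalized counts (SD, n = 3 each). The log2 differences were -0.42, -0.40 and -0.40, beside -0.42 for CBFB.

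RUNX1 was closest to HS2ST1, a heparan sulfate sulfotransferase, INTS6, an Integrator subunit, and FAM175A, a subunit of a BRCA1 complex, at 0.0531, 0.0614 and 0.0617. These genes share with RUNX1 a low value in control library 2, for example 7255, 5542 and 6852 normalized counts of HS2ST1 in control and 5031, 4918 and 5606 after BRD8 siRNA. The log2 differences were -0.33 for HS2ST1, -0.34 for INTS6 and -0.41 for FAM175A, beside -0.37 for RUNX1, and without control library 2 that of HS2ST1 was -0.45. The exons of INTS6 and FAM175A overlap other genes on the opposite strand. For RUNX2 the closest included C20orf24 and MORN1 at 0.140 and 0.192, and this likeness is to a pattern of 5 to 8 reads in each library.

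Each RUNX gene has a CLIC chloride channel gene and an RCAN calcineurin inhibitor gene on the same chromosome, remains of the duplications that made the family, so these 6 genes were read as neighbours. Of the 5 that were tested none rose or fell in limma, beside the 19.0% of all genes called, and 2 had an unadjusted p under 0.05. edgeR and DESeq2 on the recovered reads also called none. CLIC4, the nearest protein-coding gene to RUNX3 at the lower coordinate, was at 8123, 6030 and 7561 normalized counts in control and 7159, 6794 and 7646 after BRD8 siRNA, a log2 difference of 0.00 (SE 0.112, adjusted p = 0.993). The groups overlapped. SYF2, on the other side of RUNX3 and looked at after its values were seen, was at 1472 ± 118 and 1332 ± 40.2 (log2 -0.14, adjusted p = 0.273). It was not called but was lower without overlap, as were 17.9% of all genes tested.

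RCAN3, further along from RUNX3, was at 1202 ± 111 and 980 ± 118 (log2 -0.30, adjusted p = 0.0929), and it passed as lower without control library 2 (adjusted p = 0.0128). CLIC5 beside RUNX2 was at 17.7 ± 7.26 and 37.8 ± 18.3 (adjusted p = 0.103), and RCAN2 at 307 ± 26.4 and 358 ± 32.6 (adjusted p = 0.201). RCAN1 near RUNX1 was at 1315 ± 46.5 and 1313 ± 50.8 (adjusted p = 0.983), and CLIC6 had 1 normalized count or less in every library. Next to CBFB, PHAF1, listed as C16orf70, was at 352 ± 14.6 and 376 ± 49.2 (adjusted p = 0.633). LINC01426, the next annotated gene to RUNX1 at the lower coordinate, was at 11.1 ± 4.43 and 12.5 ± 1.08 (adjusted p = 0.712). The neighbours were taken from the order of genes in RefSeq. Of the protein-coding genes next to the members, looked at after their values were seen, CDC5L beside RUNX2 fell from 2022 ± 117 to 1644 ± 49.6 (log2 -0.30, adjusted p = 0.0259), SETD4 beside RUNX1 was at 402 and 398 (adjusted p = 0.929), and SUPT3H, which lies across RUNX2, was at 269 ± 4.01 and 254 ± 29.6 (adjusted p = 0.623).

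Among 26 cofactors of RUNX proteins 24 were tested, of which 2 rose and 1 fell, a share of 12.5% beside 19.0% of all genes tested, with a median log2 difference of -0.11. WWTR1, the Hippo effector TAZ, was at 28973, 22777 and 26546 normalized counts in control and at 18903, 19303 and 21009 after BRD8 siRNA, without overlap. It fell by 0.40 on the log2 scale (SE 0.0978, limma adjusted p = 0.0232), whereas its paralog YAP1 rose from 5529 ± 749 to 7313 ± 531 (log2 0.41, SE 0.108, adjusted p = 0.0302). TLE1, a Groucho co-repressor that binds the RUNX C terminus, rose from 1729 ± 60.8 to 2107 ± 155 (log2 0.28, SE 0.0800, adjusted p = 0.0397). These calls needed nearly all of the libraries, while the log2 differences with 1 library left out stayed at -0.49 to -0.32 for WWTR1, 0.29 to 0.48 for YAP1 and 0.24 to 0.34 for TLE1. WWTR1 lost its call without any library but control library 2 (adjusted p 0.0511 to 0.0971), YAP1 without control library 3 or any BRD8 siRNA library (0.0531 to 0.117), and TLE1 without control library 1 or 3 or BRD8 siRNA library 2 or 3 (0.0706 to 0.157). Without control library 2 the list had 2 higher and 8 lower, in a fit that called 2445 higher and 2784 lower of the 15354 genes tested. Without control library 3, BRD8 siRNA library 2 or BRD8 siRNA library 3 it had 0 in either direction, against 5 genes with an unadjusted p under 0.05 when all libraries were used. WWTR1 and YAP1 share exon bases with transcripts of the opposite strand. The acetyltransferases EP300 (log2 -0.12) and CREBBP (0.10), the co-repressors NCOR1 (-0.19) and SIN3A (-0.19) and the deacetylase HDAC1 (-0.05) did not pass.

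Of 31 DNA-binding partners 24 were tested, and 5 rose and 3 fell, a share of 33.3% beside 19.0% of all genes, with a median of 0.11. ETS1, which binds DNA together with RUNX1, was at 5407, 4256 and 5134 normalized counts in control and 2851, 2571 and 2923 after BRD8 siRNA. The groups were far apart, and ETS1 fell by 0.82 (SE 0.102, limma adjusted p = 0.00127). The AP-1 subunits did not move together: FOS rose from 640 ± 29.2 to 1236 ± 93.7 (log2 0.95, adjusted p = 0.000388), FOSB fell from 239 ± 14.4 to 154 ± 14.5 (log2 -0.63, adjusted p = 0.00675), and JUN was at 2378 ± 171 and 3039 ± 697 (adjusted p = 0.182). The BRD8 siRNA libraries disagreed on JUN, with 2258 in library 1 against 3600 and 3258 in libraries 2 and 3. JUNB and JUND were likewise lowest in BRD8 siRNA library 1, and FOSL1, FOSL2, JUNB and JUND were not called.

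CEBPA, a myeloid and lung differentiation factor that acts with RUNX1, rose from 12.3, 7.56 and 10.2 to 40.5, 54.1 and 36.7 normalized counts (log2 2.03, SE 0.271, adjusted p = 0.00171). MYB, a factor of progenitor cells, rose from 98.7 ± 5.91 to 168 ± 18.6 (log2 0.76, adjusted p = 0.00524). The exons of CEBPA and MYB overlap antisense transcripts. The other called partners were SMAD1, a BMP signal transducer, which fell from 295 ± 20.7 to 205 ± 6.47 (adjusted p = 0.00822), and CEBPB and CEBPD, which rose to 2342 ± 257 from 1660 ± 163 and to 852 ± 275 from 452 ± 14.2 (adjusted p = 0.0128 and 0.0249). CEBPB lost its call without control library 3 or BRD8 siRNA library 2 (adjusted p = 0.0624 and 0.0509), and CEBPD without control library 1 or 3 or BRD8 siRNA library 2 or 3 (0.0561 to 0.0926). The count of higher partners was 3 without control library 3, 3 without BRD8 siRNA library 2 and 8 without BRD8 siRNA library 1. The blood factors ERG, SPI1, TAL1 and GATA1 had means under 10, and ERG was at 0 in every library.

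All 21 enzymes that modify RUNX proteins were tested: 1 rose and 4 fell, a share of 23.8% beside 19.0% of all genes tested, with a median of -0.11. CDK1, which phosphorylates RUNX1 and RUNX2 at mitosis, fell from 6020 ± 301 to 3999 ± 62.1 (log2 -0.59, SE 0.0684, limma adjusted p = 0.000977). CDC20, the mitotic activator of the anaphase-promoting complex, fell from 2988 ± 395 to 1701 ± 108 (log2 -0.81, adjusted p = 0.00163), and the mitotic kinase AURKA from 2671 ± 200 to 1717 ± 120 (log2 -0.64, adjusted p = 0.00186). SKP2, a ubiquitin ligase subunit of the cell cycle, fell from 771 ± 40.0 to 620 ± 40.1 (adjusted p = 0.0365), but not when any library other than control library 2 was left out (0.0620 to 0.157).

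WWP1, a ubiquitin ligase reported to act on RUNX2, rose from 2242 ± 146 to 3034 ± 98.2 (log2 0.44, adjusted p = 0.00543), with exons that overlap RMDN1 on the opposite strand. The cell-cycle kinases CDK2 (log2 0.23) and CDK6 (0.20), the anaphase-promoting complex activator FZR1 (-0.18) and the ligases MDM2 (-0.24), SMURF1 (-0.08), SMURF2 (-0.06) and ITCH (-0.21) did not pass. Without control library 2 the list had 2 higher and 8 lower, in a fit that called 2445 higher and 2784 lower of the 15354 genes tested.

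Of 24 blood and lymphoid target genes 17 had means under 10 and 4 of these were at 0 in every library (IL3, ELANE, PRF1 and IFNG), so 7 were tested. Of these 2 rose and none fell in limma (4 had an unadjusted p under 0.05), a share of 28.6% beside 19.0% of all genes tested, with a median of 0.23. NFE2, a megakaryocyte and erythroid factor, was at 54.0, 65.9 and 43.7 normalized counts in control and at 102, 92.9 and 92.8 after BRD8 siRNA, without overlap. It rose by 0.82 on the log2 scale (SE 0.178, limma adjusted p = 0.0138) and lost its call without control library 3 or BRD8 siRNA library 1 (adjusted p = 0.0544 and 0.0511), so that 1 gene rose in either case. CD8A, the coreceptor gene that RUNX3 activates in T cells, was at 33.9 ± 5.11 and 33.8 ± 9.47 (adjusted p = 0.943), and CSF1R, a direct RUNX1 target in myeloid cells, at 25.7 and 41.0 (adjusted p = 0.0567).

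Of 23 skeletal and matrix targets 12 had means under 10, IBSP and COL1A2 among them at 0 in every library, and 11 were tested, of which 2 rose and 1 fell, a share of 27.3% beside 19.0% of all genes tested (median -0.07). TGFBR1, the type I TGF-beta receptor, fell from 1657, 1220 and 1547 to 843, 809 and 915 normalized counts (log2 -0.77, SE 0.119, limma adjusted p = 0.00322). VEGFA, an angiogenic ligand, rose from 10662 ± 213 to 12484 ± 414 (log2 0.23, adjusted p = 0.0414), and TIMP1, a metalloprotease inhibitor, from 2961 ± 612 to 4127 ± 461 (log2 0.49, adjusted p = 0.0437). Both lost the call when any library other than control library 2 was left out (0.0656 to 0.170 and 0.0695 to 0.143), and the list then had 1 higher gene, the fibronectin gene FN1, without control library 1 and 0 in the other cases. Leaving out control library 2 gave 2 higher and 2 lower, beside 2445 higher and 2784 lower over all genes tested. The RUNX2 target osteopontin, SPP1, was abundant at 40256 and 38168 (log2 -0.07, adjusted p = 0.597), and SOX9, TNFRSF11B and COL1A1 did not pass either (log2 -0.26, -0.07 and -0.22).

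All 25 targets in growth control, survival and adhesion were tested, and 6 rose and 3 fell, a share of 36.0% beside 19.0% of all genes tested, with a median of 0.07. RHOB, a growth-restraining GTPase, rose from 3349, 3385 and 3364 to 5432, 6882 and 6431 normalized counts (log2 0.89, SE 0.0923, limma adjusted p = 0.000619). CYR61, a secreted YAP target, rose from 5693 ± 352 to 8134 ± 149 (log2 0.52, adjusted p = 0.00194), and E-cadherin, CDH1, from 15769 ± 1135 to 22051 ± 906 (log2 0.49, adjusted p = 0.00394). SOCS3, a feedback inhibitor of cytokine signalling, rose from 805 ± 53.4 to 1116 ± 94.0 (adjusted p = 0.00948), and not without control library 3 (0.0532). CDH1 stands in the epithelial marker list as well, and its exons, like those of AXL, CCND2, VEGFA, CEBPB and SMAD1, overlap transcripts of the opposite strand.

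The receptor tyrosine kinase AXL fell from 10126, 10167 and 11182 to 7007, 6303 and 6595 normalized counts (log2 -0.66, SE 0.0751, limma adjusted p = 0.000893). CCND2, a D-type cyclin, fell from 31.4 ± 4.67 to 11.3 ± 4.49 (adjusted p = 0.0152, and 0.0720 without control library 3), and EZH2, the methyltransferase of Polycomb complex PRC2, from 1233 ± 101 to 983 ± 69.7 (adjusted p = 0.0378, not passing without control library 1 or 3 or BRD8 siRNA library 2 or 3, 0.0612 to 0.168). Leaving out control library 3 left 1 lower gene in the list, and leaving out control library 2 gave 5, beside 528 and 2784 lower over all genes tested. CDKN1A and BCL2L11, the p21 and BIM genes that RUNX3 is known to induce, were at log2 0.12 and 0.05 (adjusted p = 0.418 and 0.769), and MYC and CCND1 at -0.07 and -0.09, none of them called.

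**Figure D5:**
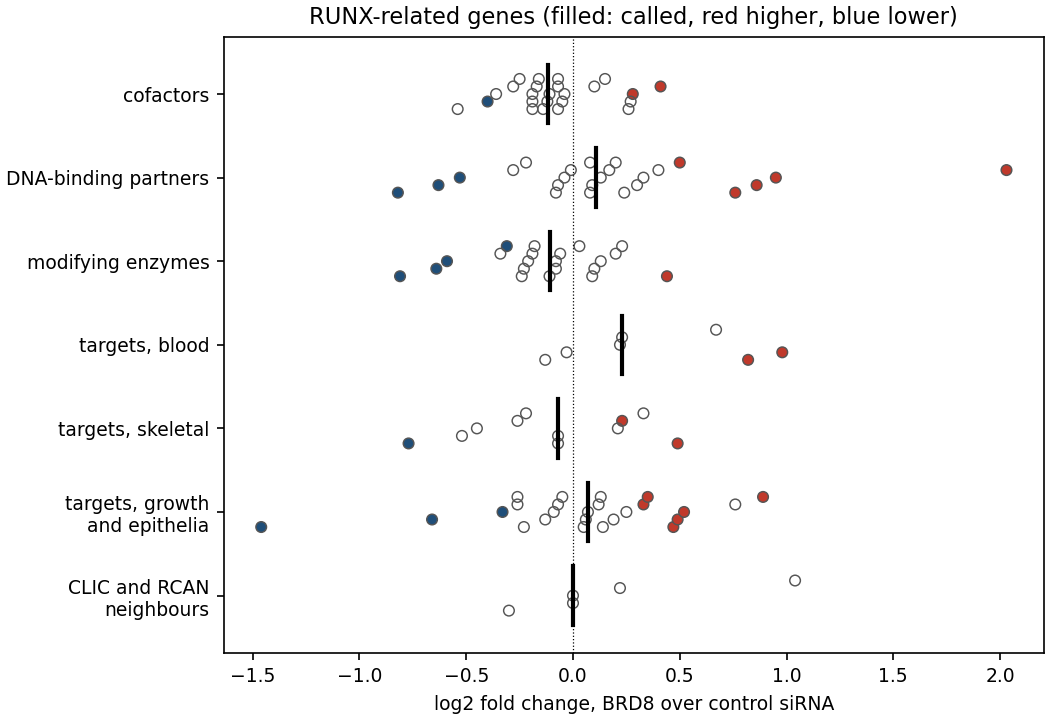
Log2 differences (BRD8 siRNA minus control, x axis) of the tested genes in the 7 RUNX gene lists, 1 point for each gene and 1 line for each list, with called genes set off by colour and the list median marked. Called genes lie on both sides of 0 in the cofactor, partner, modifier, skeletal and growth lists, and list medians run from -0.11 to 0.23.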

How the data were processed

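RNA was read by single-end sequencing of 6 libraries. Per the labels' protocols, TRIzol RNA went into a TruSeq kit that does not mark strand. STAR 2.6, featureCounts 1.6.3 (Subread), DESeq2 1.22.1 and hg19 are named in the submitters' processing notes, and for the annotation, strand setting and filters nothing is given in the sources used here. The authors deposited, for each gene and library, counts divided by a size factor (a signal in normalized counts), with their own log2 fold change and its log2 standard error, a test score and p-values. The sign of the deposited score is opposite to that of the deposited fold change, so the score was not used. All values (100%) came out as whole reads within 0.01 of a read.

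Genes with a mean of at least 10 were tested with limma 3.58.1 (trend, R 4.3.3) on log2(normalized count + 1), 3 against 3 libraries. Benjamini-Hochberg adjustment was used with a threshold of 0.05. A fold change on the log2(normalized count + 1) scale understates that of low genes. The fit was checked on simulated counts with the same extra spread for every gene and no library effect beyond depth. That check does not cover a library that stands apart, as control library 2 did. On the whole reads recovered from the deposited values edgeR 4.0.16 called 1640 genes higher and 1329 lower. Other alternatives were DESeq2 1.42.0, the deposited comparison, other pseudocounts (0.5 and 5) and filters, quantile normalization, removal of a length and GC trend (mgcv 1.9.3), a replicate block and leaving out each library. The members and the gene lists were chosen with earlier results of these data known. Named genes were the members, BRD8, up to 5 called genes of each list with the smallest adjusted p, the tested CLIC and RCAN genes, the 3 genes most like each member and the annotated neighbours. Some genes that this rule names are not reported here. SMAD1, CEBPB, CEBPD, CCND2, EZH2, the marker genes and list genes given as not passing were named after their values were seen. Exon lengths and overlaps are from GENCODE release 29, matched by symbol, in which 1861 symbols of the table had no match. A total of 4756 genes had 0 reads in every library and 28 symbols had been turned into dates. Promoters are from RefSeq.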

Additional observations from a re-analysis of the deposited data

How the results depend on the processing

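The log2 differences of RUNX1, RUNX3 and CBFB kept their sign under every alternative and with any library left out. After removal of a trend with length and GC content RUNX1 was at -0.31, RUNX3 at -2.07 and CBFB at -0.41. RUNX2 lay between -0.17 and 0.08 with a library left out, and 19 reads in each group limit what can be said of it. No named gene called in limma changed direction. Some uncalled ones changed sign with a library left out, for example CLIC4 (-0.12 to 0.09) and C20orf24 (-0.17 to 0.09). After that removal 2253 genes were higher and 2707 lower among 14852 genes with a length, more than before it. The list counts of this setting therefore do not compare with the 19.0% of all genes given above. The lists then had 1 higher and 8 lower cofactors, 8 higher and 5 lower partners, 2 higher and 7 lower modifiers, 2 lower skeletal targets, 6 lower growth targets and 1 lower CLIC or RCAN gene. The log2 difference had a Spearman rho of -0.161 with transcript length across 14852 genes, which are not independent replicates, and of -0.291 without control library 2. DESeq2 on the recovered reads gave 2 lower cofactors, 2 higher modifiers and 2 lower skeletal targets. The authors' deposited table has 2 lower cofactors and 2 lower skeletal targets, and quantile normalization gave 2 lower skeletal targets. A mean of at least 50 left 1 higher blood target, and no filter left 1 higher skeletal target. With a library left out the range was 832 to 2445 genes higher and 528 to 2784 lower. In the lists it was 0 to 2 higher and 0 to 8 lower cofactors, 3 to 8 higher partners, 1 to 2 higher and 3 to 8 lower modifiers, 1 to 3 higher blood targets, 0 to 2 higher and 1 to 2 lower skeletal targets, 4 to 7 higher and 1 to 5 lower growth targets, and 0 to 1 lower CLIC or RCAN genes. The cause of these moves was not tested. The replicate numbers are only shared numbers: same-numbered libraries correlated at -0.0845, 0.335 and 0.155 in their deviations, and not every library correlated best with its own number. With the replicate block 1939 genes were higher and 1962 lower, with 3 lower cofactors, 2 lower skeletal targets and 1 lower CLIC or RCAN gene.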
